A study of Mus musculus with 16 samples.

Results

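Marker genes of endothelial cells, which line blood vessels and the chambers of the heart, were examined for binding of the transcription factors Meis1 and Hoxb13. They were Pecam1, Cdh5, Emcn, Tek, Tie1, Kdr, Flt1, Eng, Fabp4 and Egfl7, which are 10 of 21887 protein-coding genes. The 10 were taken by name and not by any measured value, but with earlier results of these data known. A peak was assigned to a gene when it shared at least 1 bp with the gene body or with the 5 kb on either side of it, in mm10 coordinates. Every peak of 8 deposited lists that met this rule was used, 60 in all. ChIP-seq, in which DNA bound by a chosen protein is pulled down with an antibody and sequenced, had been run on mouse ventricles at postnatal day 15. One group of mice had received paromomycin with neomycin, a pair of aminoglycosides (Paro/Neo, 150 mg/kg, 2 times a day, intraperitoneally) for 7 days from postnatal day 7, and the other had received phosphate-buffered saline as vehicle over the same days. Each antibody, one against Meis1/2 and one against Hoxb13, had 2 Paro/Neo and 2 vehicle libraries. Libraries and peaks of the Meis1/2 antibody are called Meis1 here, as in the sample titles, and Meis1 and Meis2 cannot be told apart by them. The labels give no strain or genotype, and their wording of 2 hearts as biological duplicates can mean pooled or separate hearts, so spread between libraries may be technical. The Meis1 and the Hoxb13 libraries have titles of different styles, so antibody and sample set cannot be told apart. The Hoxb13 lists differ widely within each group, with 821 and 16963 peaks after Paro/Neo and 5202 and 1121 with vehicle, so results that rest on Paro/Neo replicate 2 or vehicle replicate 1 are named as such.

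Endothelial cells are held together by adhesion proteins at their junctions, and they are told to grow, branch or stay quiet by receptor tyrosine kinases. The receptors Kdr and Flt1 bind vascular endothelial growth factors, Tek (also called Tie2) binds the angiopoietins, and Tie1 is its orphan relative. Eng is a co-receptor for ligands of the TGF-beta and BMP family. The heart is dense in capillaries, whose endothelium takes up fatty acids for the muscle and expresses the fatty acid binding protein Fabp4. Meis1 and Hoxb13 are homeodomain proteins that have been studied in the mouse heart mainly in cardiomyocytes, where they are linked to the postnatal exit from the cell cycle. Since whole ventricle was used, binding in a small cell type and weaker binding in many cells cannot be told apart here.

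Meis1 peaks lay at Pecam1 and Tek alone, and did so in each of the 4 Meis1 libraries. Hoxb13 peaks lay at all 10 genes in the longest list, but in all 4 lists at Fabp4 and Egfl7 alone. These 2 rest on the 5 kb margin: the Hoxb13 peaks of Paro/Neo replicate 1 lay 1715 bp from Fabp4 and 1227 bp from Egfl7, so with the gene body alone or a margin of 1 kb that list held a peak at 0 of the 10 genes. Of the 60 peaks, 11 were Meis1 peaks and 49 were Hoxb13 peaks. All 11 Meis1 peaks lay wholly within a gene body, but they were repeated calls of 3 regions at Pecam1 and Tek. These are long genes, of 61.1 and 136 kb, whose bodies fill most of their windows. Of the 49 Hoxb13 peaks, which lay at short genes too, 23 lay wholly within a gene body, 9 crossed a gene end and 17 lay outside the gene. The same shares over all peaks are not given here, so these placements do not compare the 2 antibodies.

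**Figure D1:**
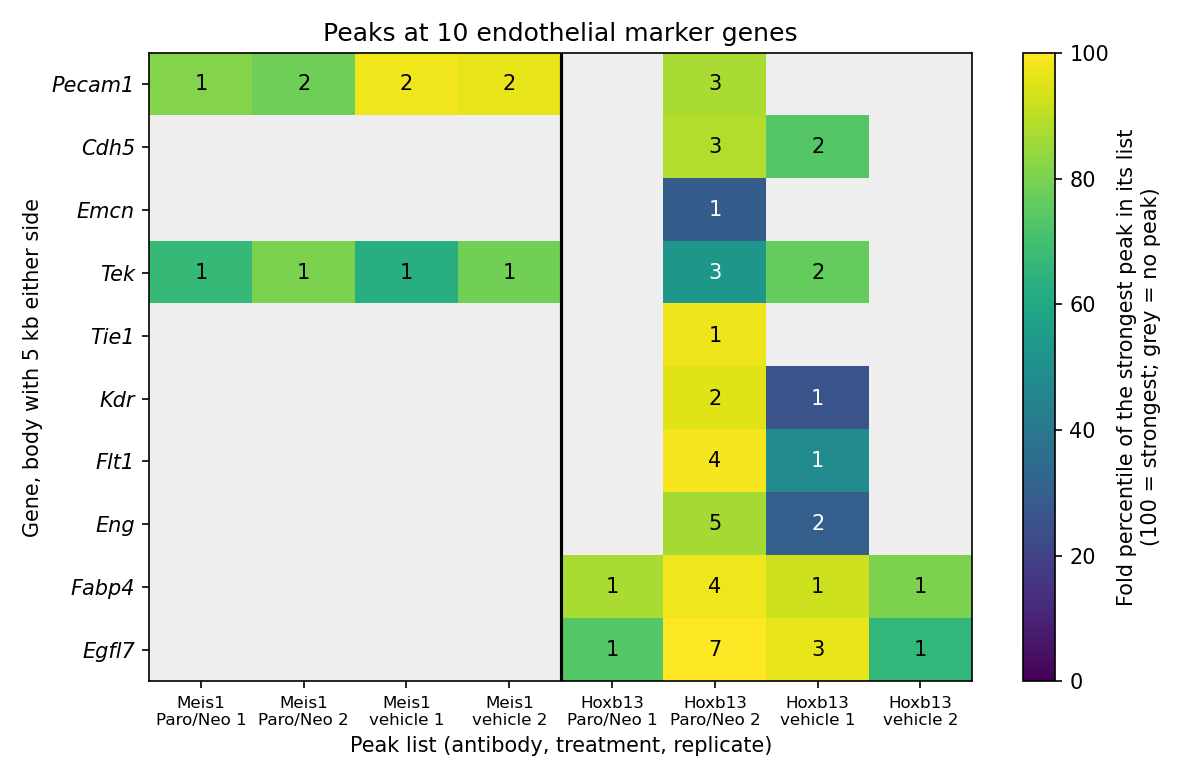
Number of peaks (digits in the cells) at each of the 10 genes in each peak list, coloured by the fold percentile of the strongest of them within its own list. Meis1 lists fill the rows of Pecam1 and Tek, Hoxb13 Paro/Neo replicate 2 fills all 10 rows, and Fabp4 and Egfl7 are filled in all 4 Hoxb13 lists.

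The number of genes marked has to be read against list length, which ran from 821 to 16963 peaks. Meis1 peaks were found at 2 of the 10 genes in Paro/Neo replicates 1 and 2, where 4.07% and 2.83% of all protein-coding genes held one. They were found at 2 of the 10 in vehicle replicates 1 and 2 as well, where the share of all genes was 8.59% and 8.21%. Hoxb13 peaks were found at 2 of the 10 genes in Paro/Neo replicate 1 and at 10 in replicate 2, where 4.2% and 46.5% of all genes held one. In the vehicle libraries they were found at 7 of the 10 in replicate 1 and at 2 in replicate 2, where the shares of all genes were 24.2% and 5.79%. Averaged by group, 6 ± 5.66 genes held a Hoxb13 peak after Paro/Neo and 4.5 ± 3.54 with vehicle (SD, n = 2 each), so the difference of 1.5 genes was smaller than the spread between replicates. For Meis1 the difference was 0, with 2 genes in every library, although the Paro/Neo lists held 1541 and 1025 peaks against 3529 and 3176 in the vehicle lists. No p-value is given for these counts, since the genes were chosen with earlier results of the data known.

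**Figure D2:**
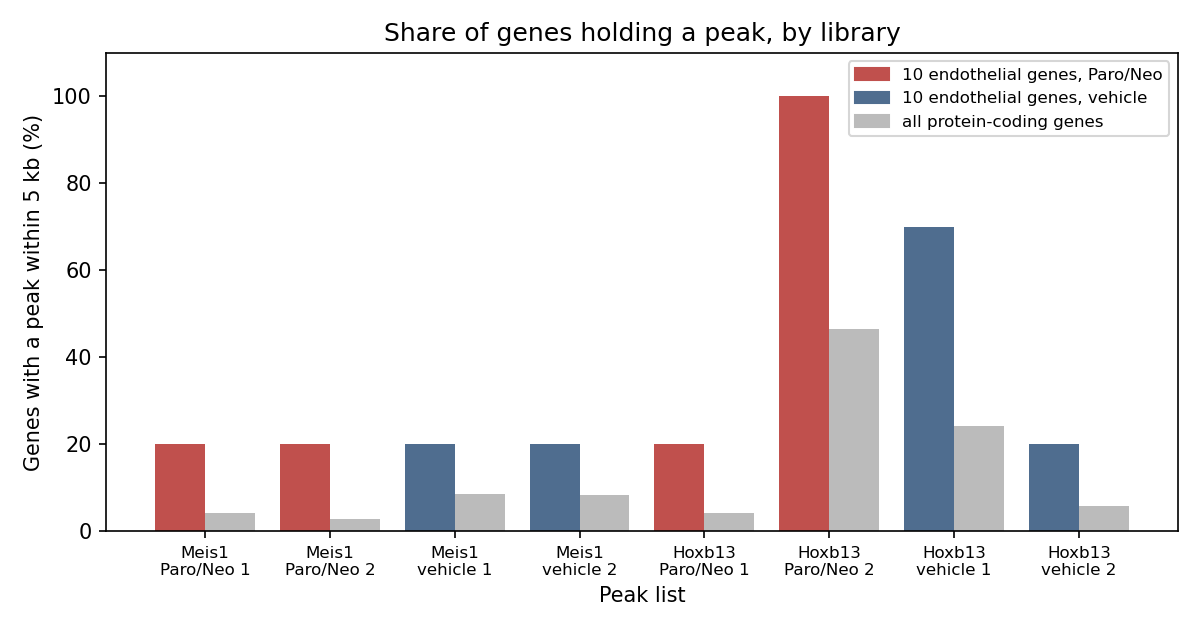
Percentage of the 10 endothelial genes (red, Paro/Neo; blue, vehicle) and of all protein-coding genes (grey) with a peak within 5 kb, by peak list; there is 1 value per library and no error bar. The coloured bars stand at 20% in 6 of the 8 lists, at 100% in Hoxb13 Paro/Neo replicate 2 and at 70% in Hoxb13 vehicle replicate 1.

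Peaks of the 4 libraries of an antibody that shared a base were merged into regions, and a region was called in each library that contributed a peak to it. A Meis1 region called in 2 or more libraries lay at 2 of the 10 genes, against 6.19% of all protein-coding genes, and the same 2 genes held a region called in all 4 libraries, against 1.75%. For Hoxb13, 7 of the 10 genes held a region called in 2 or more libraries, against 22.9% of all genes, and 2 held one called in all 4, against 2.84%. The 7 rested on the 2 long lists: without Paro/Neo replicate 2, or without vehicle replicate 1, the count was 2 (Fabp4 and Egfl7). Long genes offer more room for a peak, and the 10 genes had a median length of 44.6 kb, against 17.2 kb over all protein-coding genes. With protein-coding genes split by length into 10 classes, the share of genes of the same class with a Meis1 region in 2 or more libraries was 11.1% for Pecam1 and 23.1% for Tek. Over the 10 genes this Meis1 share ran from 3.02% to 23.1%, with a mean of 9.88%. The same share for Hoxb13 ran from 23.3% to 29.2% over the 10 genes, with a mean of 25.6%.

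Pecam1 encodes the adhesion receptor CD31 of endothelial junctions and lies at chr11:106654213-106715281. By mean percentile it carried the highest-ranked Meis1 region of the set, 525 bp wide (chr11:106677794-106678318), inside the gene body and called in all 4 libraries. Its peak ranked 287 of 1541 by fold enrichment in Paro/Neo replicate 1 and 229 of 1025 in Paro/Neo replicate 2. In vehicle replicates 1 and 2 it ranked 81 of 3529 and 116 of 3176. The authors' fold enrichment was 6.49 and 6.26 in the Paro/Neo lists, and 10.73 and 9.97 in the vehicle lists; such folds describe a peak within its own list. As fold percentiles, where 100 is the strongest peak of a list, the ranks were 81.4 and 77.8 after Paro/Neo and 97.7 and 96.4 with vehicle. A second Meis1 region of 674 bp lay nearer the low-coordinate end of the same gene (chr11:106674718-106675391). It was called in Paro/Neo replicate 2 at percentile 66.2 and in vehicle replicates 1 and 2 at 89.9 and 83.4, and was absent from the list of Paro/Neo replicate 1.

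Tek, the angiopoietin receptor, carried a single Meis1 region of 348 bp within its gene body, called in all 4 libraries. The region (chr4:94752479-94752826) lay 13.2 kb downstream of the RefSeq start site. Its peak ranked 512 of 1541 in Paro/Neo replicate 1 and 205 of 1025 in Paro/Neo replicate 2, at percentiles 66.8 and 80.1. It ranked 1310 of 3529 in vehicle replicate 1 and 675 of 3176 in vehicle replicate 2, at percentiles 62.9 and 78.8. Within a library the Pecam1 region outranked the Tek region in Paro/Neo replicate 1 and in both vehicle libraries, while in Paro/Neo replicate 2 the 2 regions stood close, with Tek ahead. No Meis1 library had a peak at Cdh5, Emcn, Tie1, Kdr, Flt1, Eng, Fabp4 or Egfl7, and with sequencing depth unknown no detection limit can be put on this absence.

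**Figure D3:**
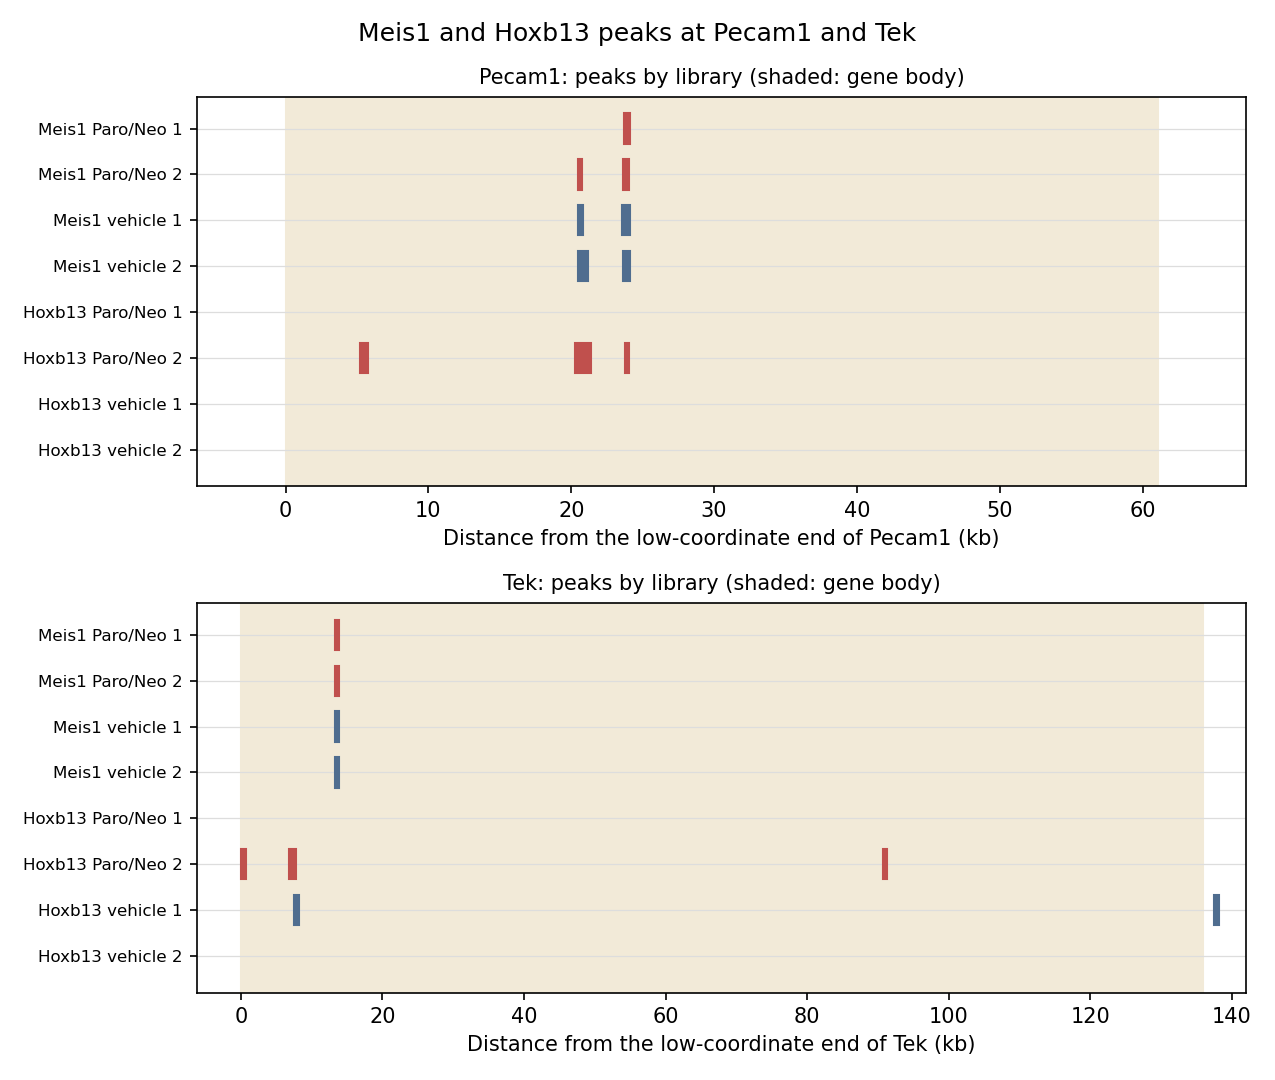
Peaks of the 8 libraries along Pecam1 and Tek, drawn as blocks (red, Paro/Neo; blue, vehicle) by distance from the low-coordinate end of each gene in kb, with the gene body shaded; short peaks are widened to stay visible. The Meis1 blocks of different libraries stack at 2 positions in Pecam1 and at 1 in Tek, and in Hoxb13 Paro/Neo replicate 2 a block overlies both Pecam1 positions but not that of Tek.

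The 2 Meis1 regions of Pecam1 were each overlapped by a Hoxb13 peak in Paro/Neo replicate 2, the only Hoxb13 library with peaks at Pecam1. These Hoxb13 peaks were low by fold, at percentiles 0.79 (over the region called in all 4 Meis1 libraries) and 23.3 (over the other), and the third Hoxb13 peak of the gene, which lay apart from both, stood at 87.2. By −log10 q the percentiles of the overlapping peaks were 25.2 and 59.7, so the second lay above the middle of its list. At Tek the Hoxb13 peaks lay elsewhere: 1 region of 1336 bp (chr4:94745898-94747233) was shared by Paro/Neo replicate 2 at percentile 52.8 and vehicle replicate 1 at 76.4, and no Hoxb13 peak overlapped the Meis1 region. Of the other 3 Hoxb13 peaks at Tek, 1 in vehicle replicate 1 lay beyond the gene, within its neighbour Eqtn. Hoxb13 Paro/Neo replicate 2 held a peak at 46.5% of all protein-coding genes. The share of all Meis1 regions overlapped by its peaks is not given here, so the overlaps at Pecam1 and their lack at Tek are a description only.

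Fabp4 held 1 of the 2 Hoxb13 regions called in all 4 libraries. The region spanned 2350 bp (chr3:10201442-10203791), beyond the low-coordinate end of the gene, which itself spans 4.28 kb (chr3:10204342-10208616). Its peak ranked 105 of 821 in Paro/Neo replicate 1 and 351 of 16963 in Paro/Neo replicate 2, at percentiles 87.3 and 97.9. In vehicle replicates 1 and 2 it ranked 405 of 5202 and 223 of 1121, at percentiles 92.2 and 80.2. Widths were 214 and 2350 bp after Paro/Neo and 1780 and 1543 bp with vehicle, so the narrowest and the widest call both came from the Paro/Neo group. The 3 further peaks at Fabp4 came from Paro/Neo replicate 2 alone, at percentiles 6.79, 15.5 and 33.6. No other annotated gene lay within the 5 kb window of Fabp4.

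Egfl7, which encodes a matrix protein secreted by endothelial cells, held 12 Hoxb13 peaks, the most of the 10 genes. The region called in all 4 libraries was 4678 bp wide (chr2:26592787-26597464) and began 105 bp beyond the far end of Egfl7. It lay almost wholly inside the neighbouring gene Agpat2, which encodes an acyltransferase of glycerolipid synthesis and starts at the opposite end of its gene body: 100% and 96.9% of the peak's bases were in Agpat2 in Paro/Neo replicates 1 and 2, and 94.2% and 100% in vehicle replicates 1 and 2. The assignment to Egfl7 therefore rests on the 5 kb margin. The peak ranked 218 of 821 and 44 of 16963 in Paro/Neo replicates 1 and 2, at percentiles 73.6 and 99.7. It ranked 199 of 5202 and 380 of 1121 in vehicle replicates 1 and 2, at percentiles 96.2 and 66.2. The 2 longest lists thus placed it highest. Widths were 1825 and 3717 bp after Paro/Neo and 4678 and 3197 bp with vehicle, at width percentiles of 94.6 and 98.6 and of 99.3 and 97.3.

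Inside the Egfl7 gene body, 2 Hoxb13 regions were shared by Paro/Neo replicate 2 and vehicle replicate 1. One of them, 3616 bp wide (chr2:26588518-26592133), had percentiles of 65.2 and 4.98 in these libraries. It overlaps the hairpin of Mir126a (chr2:26591357-26591429, plus strand), the endothelial microRNA hosted by Egfl7, but only the peak of Paro/Neo replicate 2 reached the hairpin; the peak of vehicle replicate 1 ended before it. The mature sequence from RefSeq (GRCm38.p6) is shown because that peak covers it, with its seed in capitals.
mmu-miR-126a-3p: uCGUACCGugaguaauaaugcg
The other shared region, 558 bp wide, was among the weakest peaks of both lists, at percentiles 3.4 and 5.77. Paro/Neo replicate 2 alone added 4 peaks at Egfl7, the strongest of them 193 bp wide and upstream of the gene at percentile 91, and another, at 88, over the second start site.

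**Figure D4:**
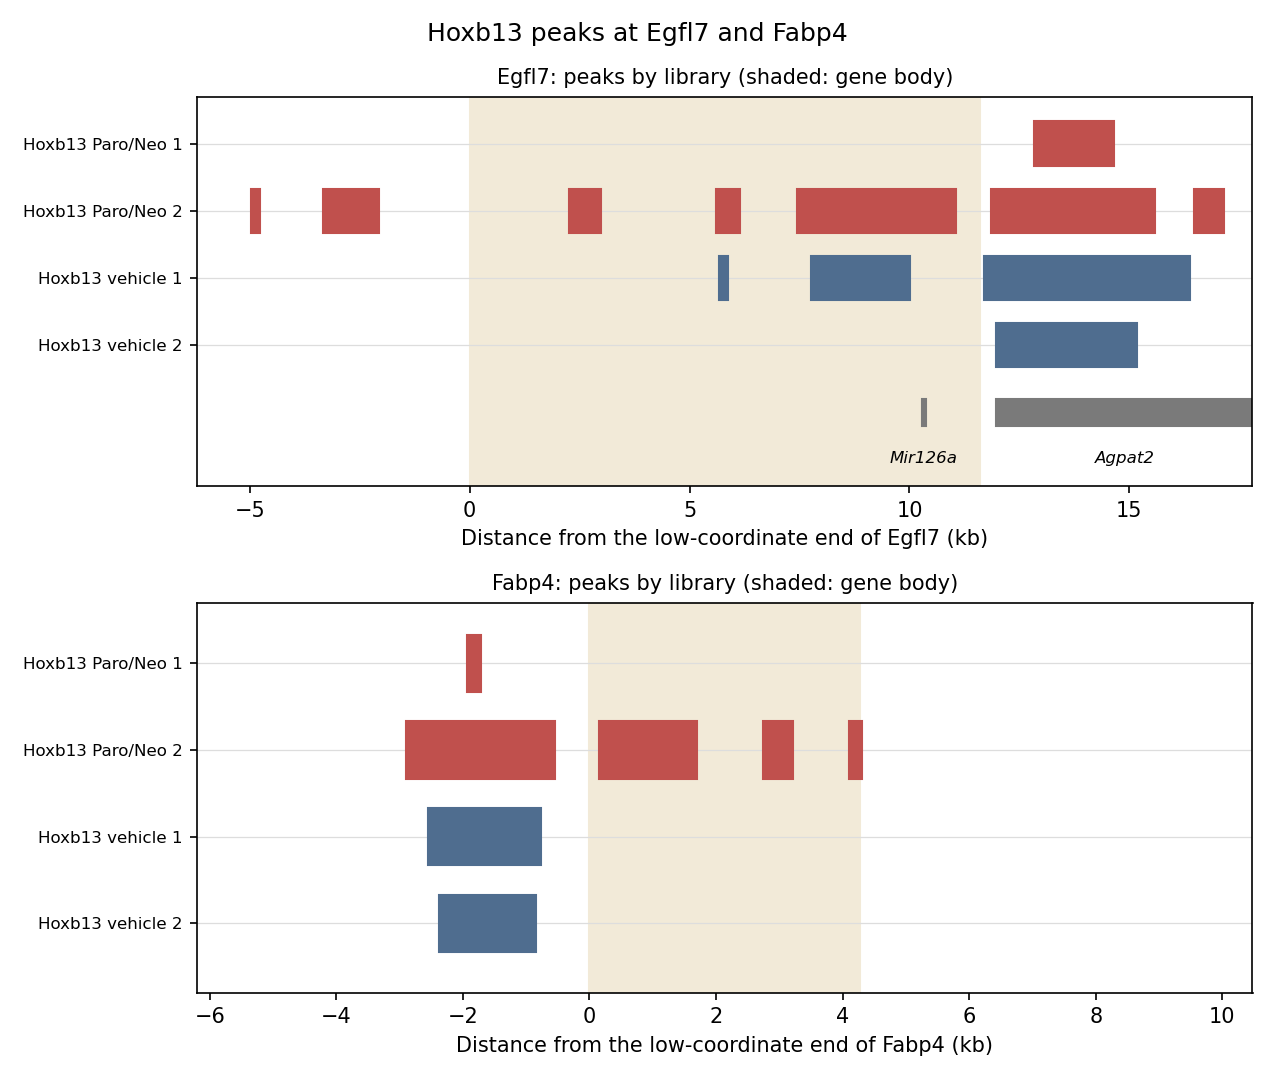
Hoxb13 peaks along Egfl7 and Fabp4, drawn as blocks (red, Paro/Neo; blue, vehicle) by distance from the low-coordinate end of each gene in kb, with the gene body shaded and Mir126a and Agpat2 in grey (Agpat2 runs past the edge; the shortest blocks are widened to stay visible). In each gene all 4 libraries have a block outside the shaded body, and at Egfl7 these blocks lie over Agpat2.

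The growth factor receptors Flt1, Kdr and Tie1 held Hoxb13 peaks in the 2 long lists alone. Flt1, a receptor for VEGF-A that also acts as a decoy, held 5 peaks. The region at its start (chr5:147726008-147726705) was called in Paro/Neo replicate 2, at rank 240 of 16963 and percentile 98.6, and in vehicle replicate 1, at rank 2696 of 5202 and percentile 48.2. The other 3 peaks lay within the gene in Paro/Neo replicate 2 alone, at percentiles 97.2, 83.2 and 23.6. Kdr, the main signalling receptor for VEGF-A, held its shared region not at the start but at the far end of the gene, 44.4 kb from the start site in both libraries (chr5:75933518-75934084). That region stood at percentile 95.3 in Paro/Neo replicate 2 and 25.6 in vehicle replicate 1. Tie1 held 1 peak, in Paro/Neo replicate 2 alone, which began 7 bp upstream of its start site (chr4:118489856-118490198) and ranked 440 of 16963.

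Eng held 7 Hoxb13 peaks, 5 of them in Paro/Neo replicate 2 and 2 in vehicle replicate 1, forming 2 shared regions. One lay 9.12 kb from the start site (chr2:32655713-32656304), at percentile 86.4 in Paro/Neo replicate 2 and 30 in vehicle replicate 1. The other crossed the far end of Eng into Fpgs, a gene of folate metabolism (chr2:32681901-32685917), and was 4017 bp wide in Paro/Neo replicate 2 but 320 bp wide in vehicle replicate 1, where it lay outside Eng. Cdh5, which encodes VE-cadherin of the endothelial adherens junction, held 3 shared regions. The highest by mean percentile (chr8:104095692-104096948) lay before the low-coordinate end, at percentile 65.7 in Paro/Neo replicate 2 and 86.2 in vehicle replicate 1, whose peak lay beyond the 5 kb margin. The region at its low-coordinate end (chr8:104101436-104101754) stood at percentile 88.6 in Paro/Neo replicate 2 and 43.5 in vehicle replicate 1, and the one at its high-coordinate end (chr8:104144499-104145877) at 43.8 and 73.8. The non-coding gene Gm29682 overlaps the low-coordinate end. Emcn, which encodes the surface sialomucin endomucin, held a single peak across its start (chr3:137340965-137341710), in Paro/Neo replicate 2 alone and at percentile 29.4. In all, 12 Hoxb13 regions at the 10 genes were called in 2 or more libraries, 10 of them in Paro/Neo replicate 2 and vehicle replicate 1 only, and 22 were called in a single library. The 33 peaks of Paro/Neo replicate 2 at the 10 genes ran from percentile 0.79 to 99.7 with a median of 65.7, and the 12 of vehicle replicate 1 ran from 4.98 to 96.2 with a median of 44.4.

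RefSeq promoter windows, from 250 bases before to 50 after a start site (GRCm38.p6), were given for 7 of the 10 genes and numbered 9, as Egfl7 has 3; Pecam1, Cdh5 and Fabp4 had no entry. Meis1 peaks overlapped 0 of the 9 windows in each of the 4 Meis1 libraries. Of all promoter windows they overlapped 0.326% and 0.295% in Paro/Neo replicates 1 and 2, and 0.989% and 0.95% in vehicle replicates 1 and 2. With shares this low, 0 of 9 does not set these windows apart. Hoxb13 peaks overlapped 7 of the 9 in Paro/Neo replicate 2, where 23.1% of all promoter windows were overlapped, and 1 of the 9 in vehicle replicate 1, where the share was 10.8%. That 1 was the Flt1 window, by 10 bases. The other Hoxb13 libraries overlapped 0 of the 9, where the shares were 1.34% (Paro/Neo replicate 1) and 2.05% (vehicle replicate 2). In Paro/Neo replicate 2 the overlap was 300 bases at the second Egfl7 start, 254 at Flt1, 244 at Tie1, 229 at Eng and 163 at Emcn, but 10 at Tek and 6 at the third Egfl7 start. The windows of Kdr and of the first Egfl7 start were free of peaks. The 4 windows with the most bases inside a peak are shown 5′ to 3′ on the strand of the gene. Capitals mark the bases inside the peak of Hoxb13 Paro/Neo replicate 2, the only library to cover more than 10 bases of any of them.
Flt1, chr5:147725962-147726261, minus strand: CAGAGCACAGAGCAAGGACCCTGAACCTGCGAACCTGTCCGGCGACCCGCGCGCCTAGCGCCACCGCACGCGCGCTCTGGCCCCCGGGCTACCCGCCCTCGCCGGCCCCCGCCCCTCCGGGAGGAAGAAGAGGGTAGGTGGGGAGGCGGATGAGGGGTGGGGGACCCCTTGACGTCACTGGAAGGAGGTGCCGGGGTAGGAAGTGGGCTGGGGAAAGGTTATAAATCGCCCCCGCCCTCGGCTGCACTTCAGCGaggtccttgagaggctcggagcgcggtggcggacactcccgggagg
Tie1, chr4:118489800-118490099, minus strand: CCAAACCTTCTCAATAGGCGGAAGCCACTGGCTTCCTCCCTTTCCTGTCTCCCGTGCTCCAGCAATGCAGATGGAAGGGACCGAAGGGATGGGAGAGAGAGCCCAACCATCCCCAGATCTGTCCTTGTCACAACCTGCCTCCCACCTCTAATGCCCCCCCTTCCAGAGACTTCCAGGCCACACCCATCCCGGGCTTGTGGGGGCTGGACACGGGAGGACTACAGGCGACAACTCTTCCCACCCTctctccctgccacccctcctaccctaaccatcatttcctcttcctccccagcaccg
Eng, chr2:32646345-32646644, plus strand: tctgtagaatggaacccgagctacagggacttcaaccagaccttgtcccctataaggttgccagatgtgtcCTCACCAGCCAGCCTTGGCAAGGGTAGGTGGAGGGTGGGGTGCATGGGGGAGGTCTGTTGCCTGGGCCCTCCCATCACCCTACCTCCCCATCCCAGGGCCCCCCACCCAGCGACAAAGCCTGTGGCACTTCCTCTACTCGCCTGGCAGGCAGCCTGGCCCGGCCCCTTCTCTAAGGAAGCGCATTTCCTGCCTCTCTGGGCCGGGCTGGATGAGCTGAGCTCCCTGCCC
Egfl7, second start, chr2:26583615-26583914, plus strand: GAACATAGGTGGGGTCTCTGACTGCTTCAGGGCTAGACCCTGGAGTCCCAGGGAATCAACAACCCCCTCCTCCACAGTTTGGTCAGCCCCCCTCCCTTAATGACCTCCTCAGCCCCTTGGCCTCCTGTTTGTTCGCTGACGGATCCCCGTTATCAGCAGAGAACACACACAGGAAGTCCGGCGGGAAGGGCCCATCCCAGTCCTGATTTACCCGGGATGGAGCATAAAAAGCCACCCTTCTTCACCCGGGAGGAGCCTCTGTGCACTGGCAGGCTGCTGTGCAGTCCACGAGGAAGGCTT
Letters of known sites were searched on both strands. The core of the MEIS site, TGACAG, was found in 2 of the 9 windows, against 19.2% of all windows, at Tek and at the first Egfl7 start; neither lay under a Meis1 peak. The HOXB13 sites CCAATAAA and CTCGTAAA were in 0 of the 9, against 1.12% and 0.131% of all windows. The ETS site CCGGAAGT was in 0 of the 9, against 3.89%. No motif searched contains another, and a match or its lack describes only these windows.

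Treatment was compared on the regions called in all 4 libraries of an antibody, so that ranks ran over the same regions in every library. List length still enters, since the shorter lists limit which regions are shared. It also enters where a library has several peaks in a region, of which the strongest was taken. Among the 610 such Meis1 regions, the Pecam1 region ranked 239 and 215 in the Paro/Neo libraries and 79 and 112 in the vehicle libraries. It stood lower in both Paro/Neo libraries, with mean ranks of 227 ± 17 and 95.5 ± 23.3 (SD, n = 2 each) and no overlap between the groups. The Tek region ranked 365 and 195 in the Paro/Neo libraries and 531 and 414 in the vehicle libraries. It stood higher in both Paro/Neo libraries, with mean ranks of 280 ± 120 and 472.5 ± 82.7 (SD, n = 2 each). The order of the groups at Tek was thus the opposite of that at Pecam1. Each gave p = 0.333 (exact two-sided permutation test), the smallest value that 2 against 2 libraries allow. Of all 610 regions, 13.3% stood lower in both Paro/Neo libraries and 15.7% stood higher in both, so many other regions were placed like each of them. With the second replicates exchanged between the groups, as the letters in the names of the deposited Meis1 lists would have it, the groups overlapped for both genes.

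Among the 449 Hoxb13 regions called in all 4 libraries, the Fabp4 region ranked 92 and 192 in the Paro/Neo libraries and 229 and 173 in the vehicle libraries. The Egfl7 region ranked 166 and 40 in the Paro/Neo libraries and 152 and 243 in the vehicle libraries. The groups overlapped for both genes, and each gave p = 0.667 (exact two-sided permutation test, n = 2 each). By width the Egfl7 region was 74th and the Fabp4 region 138th of the 449, whose median width was 1453 bp.

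**Figure D5:**
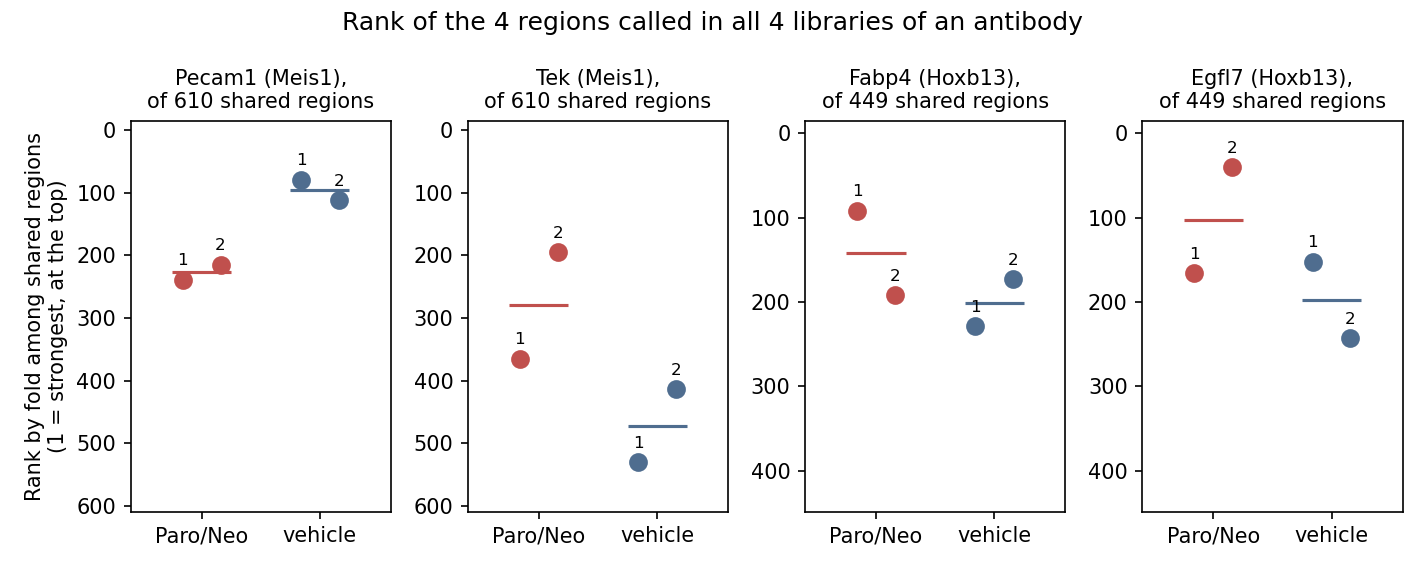
Rank by fold enrichment of 4 regions among the regions called in all 4 libraries of the same antibody (vertical axis, 1 = strongest, at the top); points are libraries with their replicate number and bars are group means (red, Paro/Neo; blue, vehicle). Pecam1 points of Paro/Neo sit at 239 and 215, below the vehicle points at 79 and 112, the order at Tek is the opposite, and the points of the 2 groups overlap at Fabp4 and Egfl7.

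Other genes of endothelial biology were described from 3 lists: ligands and partners of the 10 genes, endothelial transcription factors, and further endothelial markers. Of their 64 genes, 4 held a Meis1 region called in 2 or more libraries, against 6.19% of all protein-coding genes, and 2 held one called in all 4, against 1.75%. A Hoxb13 region called in 2 or more libraries lay at 29, against 22.9% of all genes, and one called in all 4 lay at 5, against 2.84%. Of the 64, 15 had peaks in both long lists, Hoxb13 Paro/Neo replicate 2 and vehicle replicate 1, and in no other list, a pattern of 13.3% of all genes. These 15 were all among the 29. The Meis1 count in 2 or more libraries was near the share of all genes. Median length was 14.4 kb, shorter than that of the 10 genes. Nrp1, a co-receptor of Kdr, and Ets1, a transcription factor of endothelium and lymphocytes, held the 2 Meis1 regions called in all 4 libraries (chr8:128371830-128372182 and chr9:32646498-32647100), at mean percentiles of 74.4 and 50.3. Meis1 regions at Jup (plakoglobin) and Cd36 (a fatty acid transporter) were called in 2 libraries, the vehicle pair, at mean percentiles of 51.5 and 24. The Hoxb13 regions called in all 4 libraries lay at Cd34, a sialomucin of endothelial and progenitor cells (mean percentile 94.9), at Plcg1, which signals downstream of Kdr (92.7), at Acvrl1, the receptor partner of Eng (88.1), at Klf2, a flow-responsive transcription factor (85), and at Vegfb, a ligand of Flt1 (41). Of the 64 genes, 20 held a peak in Hoxb13 Paro/Neo replicate 2 and in no other library, against 18.7% of all protein-coding genes. Another 13 held none, and the share of all genes with none was not counted.

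Genes of the fixed lists whose presence or absence of a peak in the 8 libraries was the same as that of one of the 10 genes are named as a description. Tek, with peaks in 4 Meis1 and 2 Hoxb13 libraries, shared its pattern with Nrp1 and Ets1, and with 115 protein-coding genes in all, itself included. Fabp4 and Egfl7, with peaks in the 4 Hoxb13 libraries alone, shared theirs with Vegfb, Plcg1, Klf2 and Cd34, and with 433 genes in all. Pecam1, with peaks in 4 Meis1 libraries and 1 Hoxb13 library, shared its pattern with 163 genes in all and with 0 of the 64.

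The endothelial genes were set beside markers of other cardiac and blood cells. A Hoxb13 region called in all 4 libraries lay at 2 of 10 endothelial genes and at 11 of 12 cardiomyocyte genes, against 2.84% of all protein-coding genes. Myh6 and Myh7 were counted through the same region. For fibroblast, mural, leukocyte and erythroid markers the same count was 0 of 10, 0 of 8, 1 of 8 (Cd3e, named after its value was seen) and 0 of 6. The Cd3e region ran past the 5 kb window, inside which only Hoxb13 Paro/Neo replicate 2 and vehicle replicate 1 had a peak. In 2 or more libraries, a Hoxb13 region was called at 7 of 10 endothelial and 12 of 12 cardiomyocyte genes, against 22.9% of all protein-coding genes. Fibroblast, mural, leukocyte and erythroid counts were then 1 of 10, 4 of 8, 2 of 8 and 0 of 6. The endothelial 7 rested on the 2 long lists. A Meis1 region called in all 4 libraries lay at 2 of 10 endothelial and 1 of 12 cardiomyocyte genes, against 1.75% of all protein-coding genes. It lay at 1 of 10 fibroblast, 1 of 8 mural, 0 of 8 leukocyte and 0 of 6 erythroid genes. Called in 2 or more libraries, a Meis1 region lay at 2 of 10 endothelial and 7 of 12 cardiomyocyte genes (Myh6 and Myh7 by the same region), against 6.19%. By that rule the other counts were 2 of 10 fibroblast, 1 of 8 mural, 0 of 8 leukocyte and 0 of 6 erythroid genes. These counts between lists were not tested, and the median gene length of a list ran from 11 kb (leukocyte) to 44.6 kb (endothelial). Peak lists measure no expression, so the presence of endothelial cells in the ventricles was not checked from them.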

How the data were processed

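ChIP-seq of mouse ventricles was analysed from 8 deposited peak lists, 1 per library; the 8 input samples were not analysed here. FastQC 0.11.5, Bowtie2, Picard 1.127, MACS2 and HOMER with build mm10 are named in the submitters' processing notes, and no source used here gives the peak caller's options, control or filters. Each peak carries the authors' fold enrichment (a ratio) and the authors' −log10 p-value and q-value; the score repeats the q-value and was not used. These values ranked peaks within their own list only. Sequencing depth is unknown.

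Peaks on chromosomes 1 to 19, X and Y were used; chrM peaks, 0 to 6 per list, were left out. Coordinates were compared, 1-based, with RefSeq genes and promoter windows of GRCm38.p6, which has mm10 coordinates. All 64 further endothelial genes and all marker genes matched by symbol. Groups follow the labels; the names of the second Meis1 lists carry the letter of the other group. The 10 genes and all lists were chosen with earlier results of these data known. All 10 are named. Of the 64 further endothelial genes, those with a region called in all 4 libraries of an antibody, or in 2 or more of both, are named. Markers of other cells are given as counts, with Myh6, Myh7 and Cd3e named to explain a count. Percentages over all genes come from 21887 protein-coding genes. Permutation tests were exact. Gene calls were tested on simulated data. Python 3.11.15 was used. The motifs and the shared-region ranks with their alternatives were chosen after seeing the data.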

Additional observations from a re-analysis of the deposited data

How the results depend on the processing

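Gene body alone, 1 kb either side, a −log10 q of at least 2, and a peak centre inside the window left the Meis1 count of genes with a region in 2 or more libraries at 2 and the Hoxb13 count at 6 or 7. Hoxb13 counts per library did change: with the gene body alone they were 0 and 9 genes after Paro/Neo and 6 and 0 with vehicle, and with 1 kb they were 0 and 10 after Paro/Neo and 7 and 2 with vehicle, a difference of 0.5 in place of 1.5. With 20 kb either side the Meis1 difference between Paro/Neo and vehicle became −1 gene, since both vehicle libraries then held a peak at Egfl7, and with Meis1 lists shortened to the top 1025 peaks each it became 0.5, since the Tek peak of vehicle replicate 1 ranks below that limit. With Hoxb13 lists reduced to 821 peaks, 2 genes, Fabp4 and Egfl7, held a region in 2 or more libraries, by the construction of shorter lists. Leaving out 1 library at a time gave 2 to 7 genes for Hoxb13 and a Hoxb13 difference of −2.5 to 5.5 genes, negative without Paro/Neo replicate 2 and without vehicle replicate 2. With the second Meis1 replicates exchanged between groups, the rank difference at Tek, −192.5 as labelled, became 26.5, and that at Pecam1, 131.5 as labelled, became 28.5; the causes were not tested. Leaving out 1 library at a time, this difference ran from 116.5 to 183 at Pecam1, −341 to −133.5 at Tek, −108.5 to −21 at Fabp4 and −214 to −27.5 at Egfl7. Ranking by −log10 q kept the direction of the 4 rank differences. With the replicate numbers as a block, a fit added after seeing the data, the mean rank differences are the same by construction, 131.5 at Pecam1, −192.5 at Tek, −59 at Fabp4 and −94.5 at Egfl7, and the exact two-sided sign-flip p is 0.5 at Pecam1 and Tek, the smallest that 2 pairs allow, and 1 at Fabp4 and Egfl7. Same-numbered libraries share only a number: over the shared regions their deviations from the group means correlated at 0.04 for Meis1 and −0.17 for Hoxb13. With the Hoxb13 numbers crossed, 0 of 2 regions could be called, as with the numbers as labelled, since 2 pairs allow no p under 0.5. Unknown depth limits every statement about an absent peak.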
